A study of Arabidopsis thaliana with 11 samples.

Results

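The effect of losing the PSY1 receptor was described in untreated Arabidopsis thaliana seedlings. The 3 arrays titled psy1r were set against the 3 arrays of wild type (WT), chosen by their titles alone, and these were 6 of the 11 arrays of the series. The psy1r seedlings were a PSY1R knockout and the WT seedlings were unmutated, both of ecotype Columbia-0, about 1 week old and given no peptide. Seeds of both lines were stratified and grown in shaken flasks of liquid Murashige and Skoog medium with 1% sucrose under continuous light, and whole seedlings were taken for RNA. The allele is not named in the sources used here and the mutant stands as 1 line. The other 5 arrays held 2 psy1r + PSY1 and 3 WT + PSY1 samples treated with 10 nM PSY1 for 4 h, and they shared the estimate of the spread. The study describes its samples as biological replicates, but the labels do not tie them to separate flasks, so that p-values measure the spread between these arrays. In whole seedlings, fewer cells of a type and less RNA per cell cannot be told apart.

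PSY1 is a secreted glycopeptide with a sulfated tyrosine that promotes cell elongation and cell proliferation. PSY1R is a receptor kinase of the plasma membrane with leucine-rich repeats outside the cell, and it acts on the proton pumps that acidify the cell wall. The related peptide hormone phytosulfokine (PSK) is read by the receptors PSKR1 and PSKR2, and the enzyme TPST sulfates the tyrosines of both peptides.

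Levels are given as normalised signal, the processed signal of a probe scaled so that the 75th percentile of its array equals 100, always for replicates 1, 2 and 3 in that order. Each array held 43603 probes, of which 72.3% to 81.7% were well above background, and no spot was saturated. Replicate 3 stood apart from the others in both genotypes: the median difference between 2 arrays was 0.10 on the log2 scale between psy1r replicates 1 and 2, but 0.37 from either to replicate 3. In WT it was 0.08 between replicates 1 and 2 and 0.30 or 0.33 to replicate 3. The 3 WT + PSY1 arrays differed by 0.08 to 0.11. The 7 leaf markers were above background on all 6 untreated arrays and summed to between 62391 and 69791 in psy1r and between 57316 and 76311 in WT. Of 12 root markers, 11 or 12 were above background on each of these arrays. Their median level was 18.6, 18.9 and 6.70 in psy1r and 31.7, 31.9 and 9.65 in WT. Their summed level was 9334, 8429 and 7350 in psy1r and 8526, 7816 and 6798 in WT. Of these 12 markers, 9 had a negative and 3 a positive log2 fold change, and 0 were called. Each group was hybridised at its own position on every slide, so that position and genotype cannot be told apart.

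PSY1R itself was the locus with the largest fall. Its level was 1.03, 1.07 and 0.261 in psy1r, against 42.2, 43.0 and 26.9 in WT. The probe was above background on 1 psy1r array and on all 3 WT arrays, and the groups did not overlap. The log2 fold change was -5.79 (SE 0.73, limma adjusted p = 0.00935). The labels of the 6 arrays therefore matched the level of the gene they name. Where the probe lies relative to the mutation is not given in the sources used here.

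The other genes of the PSY1 and PSK pathways were not called. PSY1, which encodes the precursor of the ligand, was at 59.5, 56.8 and 98.9 in psy1r and 97.5, 95.7 and 83.8 in WT, and these groups overlapped (log2 fold change -0.41, SE 0.23, adjusted p = 0.399). TPST was at 20.56, 18.84 and 19.97 in psy1r and 18.96, 19.18 and 19.81 in WT. PSKR1 differed by 0.31 and PSKR2 by -0.09 on the log2 scale. For the proton pumps HA1 and HA2, which are the plasma membrane targets, the differences were 0.00 and -0.02. Among the PSK precursors PSK1 had the largest difference, with 29.8, 29.4 and 17 in psy1r against 56.4, 55.4 and 47.4 in WT, groups that did not overlap but an adjusted p of 0.0783. Of the 19 pathway genes tested, PSY1R alone passed, and the median log2 fold change was -0.02, as over all loci.

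Of 35255 probes tested, 298 were called (0.845%), which means an adjusted p below 0.05 and a change of more than 2-fold. They were 105 higher and 193 lower in psy1r. Counted by locus, with the brightest probe standing for each, 215 of 21432 loci were called (1%), 79 higher (0.369%) and 136 lower (0.635%). The median change of the called loci was 3.08-fold among the higher and 2.63-fold among the lower. More than 4-fold differences were seen at 20 higher and 30 lower loci, and more than 16-fold at 8 higher and 2 lower. All 298 called probes had psy1r and WT values that did not overlap, as had 20.98% of all tested probes. Over all tested loci the share without overlap was 22.8%, made up of 10.7% higher and 12.1% lower in psy1r. Of the 36 called loci with several tested probes, 35 had all their probes on the same side of 0 and 16 had all of them called.

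The count depended on single arrays. Leaving out psy1r replicate 1, 2 or 3 gave 97, 112 or 990 called probes, and leaving out WT replicate 1, 2 or 3 gave 91, 92 or 678. A fit on the 6 untreated arrays alone called 106 probes, 57 higher and 49 lower, of which 70 were among the 298. In that fit 56 of the 215 loci kept their call. The median standard deviation of a probe on the log2 scale was 0.21 in WT and 0.24 in psy1r. It was 0.08 in WT + PSY1 and 0.26 in psy1r + PSY1, which also entered the shared estimate of the spread. With replicates 1 and 2 of each genotype averaged into 1 sample, because they lay so close together, 6 probes were called. Blocking by slide left 247 called probes, and 154 of the 215 loci kept their call.

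**Figure D1:**
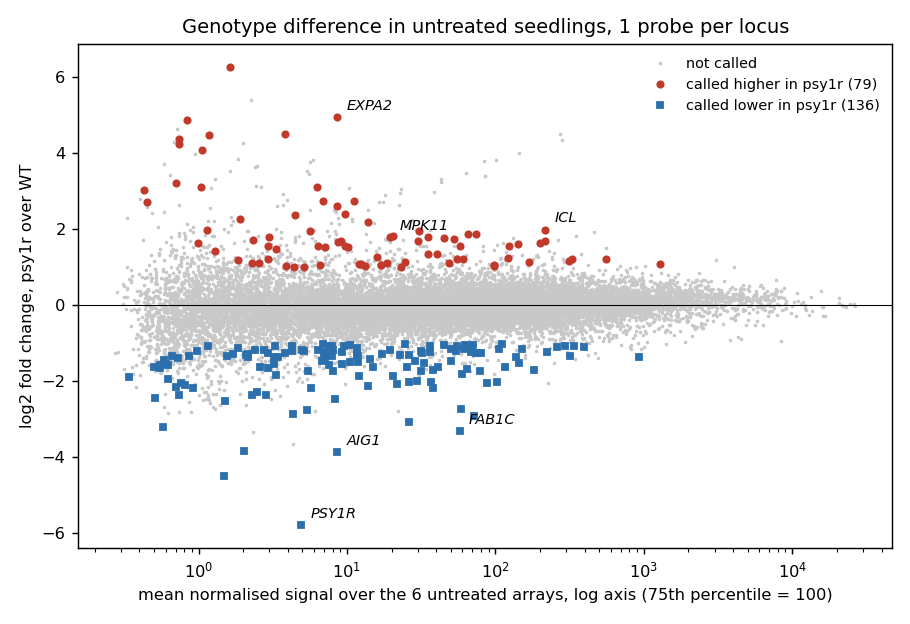
Log2 fold change of psy1r over WT in untreated seedlings (vertical axis) against the mean normalised signal over the 6 arrays (horizontal log axis), 1 point for each of the 21432 tested loci. Circles mark the 79 loci called higher and squares the 136 called lower in psy1r; PSY1R is the lowest point, at -5.79.

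Ranked by log2 fold change, the largest rises were mostly of genes that were barely measurable in WT. EXPA2, an expansin that loosens cell walls and is known from germinating seed, reached 50.8, 50.6 and 42.9 in psy1r, against 0.913, 1.31 and 3.03 in WT. All 3 psy1r arrays lay more than 10-fold above every WT array (log2 fold change 4.96, SE 0.62, adjusted p = 0.00934). It was the only one of 44 tested cell wall genes called (2.27%, against 1% of all loci). The list held expansins, xyloglucan endotransglucosylases and cellulose synthases, and its median log2 fold change was 0.06. EXP3, an expansin of growing tissue, was at 67.8, 60.5 and 68.2 in psy1r and 109, 109 and 104 in WT, a smaller difference that passed the adjusted p (0.0163) but not the fold limit.

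AT3G17520 was called higher (adjusted p = 0.0343). Its level was 17.3, 16.6 and 10.4 in psy1r, against 0.169, 0.125 and 0.304 in WT, where it was not well above background on any array. For such called probes a bound is given in place of a fold change, the mean of the measured group over the lowest signal that the other group could have measured, and AT3G17520 was at least 47.5-fold higher. Blocking by slide gave it an adjusted p of 0.054. AtLEA4-1, a late embryogenesis abundant protein of maturing seed, was at 25.5, 24.5 and 9.46 in psy1r and 1.11, 1.17 and 0.389 in WT (log2 fold change 4.51, SE 0.66).

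Of the 12 largest rises, 9 had no WT array well above background. The ranking used their log2 fold changes, which rest there on WT signal below background, so that it is not a ranking by the bounds. AT4G36600 was at least 17.5-fold higher, with 5.61, 6.82 and 4.52 in psy1r and 0.165, 0.397 and 0.238 in WT, and both of its probes were called. AT4G21020 (at least 15.4-fold), AT5G10120 (at least 14.5-fold), AT2G25890 (at least 11.3-fold), AT1G59920 (at least 10.7-fold), AT1G20730 (at least 8.17-fold), AT1G18130 (at least 7.20-fold) and FH3 (at least 4.12-fold) followed. FH3 encodes a formin, a protein that nucleates actin filaments. These 8 loci lay between 0.566 and 6.82 on all psy1r arrays, close to the limit of measurement. Blocking by slide gave adjusted p-values of 0.054 for FH3, 0.0753 for AT4G21020 and 0.0711 for AT2G25890. AT5G55410, measured on all arrays, had 15.2, 17.1 and 24.6 in psy1r and 1.03, 2.44 and 3.95 in WT.

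**Figure D2:**
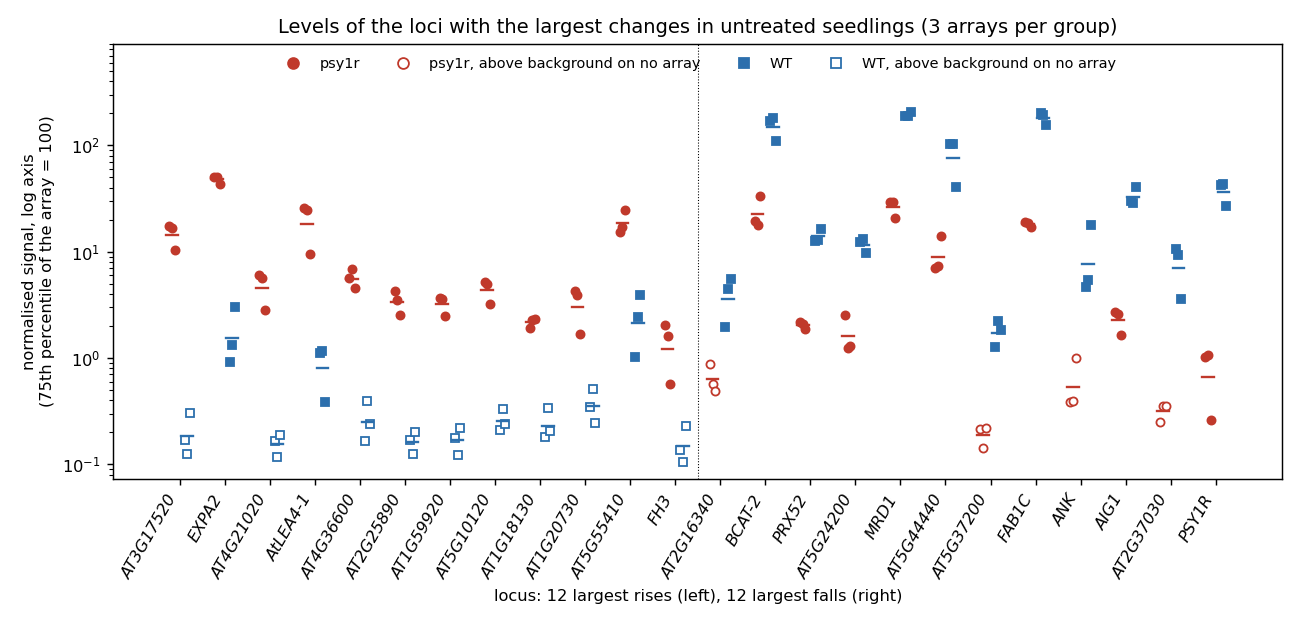
Normalised signal (vertical log axis, 75th percentile of each array = 100) of the 12 most raised and the 12 most lowered loci, with 1 point per array, psy1r (circles) left of WT (squares) and bars for the geometric means. Open symbols mark groups with no array well above background; the groups of no locus overlap.

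AIG1 had the lowest adjusted p among the falls. It is a gene induced when the bacterial effector AvrRpt2 is recognised, and its level was 2.73, 2.59 and 1.66 in psy1r, against 30.3, 28.9 and 40.5 in WT (log2 fold change -3.86, SE 0.20, adjusted p = 0.00015). FAB1C, a member of the family of phosphoinositide kinases, was at 19.1, 18.5 and 17.2 in psy1r and 201, 195 and 155 in WT. This was a log2 fold change of -3.32 for the brighter probe, while the other probe of FAB1C gave -0.91 and was not called. MRD1, named for falling in a mutant with excess methionine, was at 29.1, 29.3 and 20.8 in psy1r and 189, 190 and 207 in WT (log2 fold change -2.90).

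PRX52, a cell wall peroxidase, was at 2.18, 2.1 and 1.88 in psy1r, against 12.6, 13 and 16.5 in WT. Both AIG1 and PRX52 kept their call in 21 of 22 alternative analyses, as did FAB1C. AT2G37030 (SAUR46), of a family of small auxin-induced genes, was at 0.250, 0.355 and 0.350 in psy1r and 10.6, 9.23 and 3.60 in WT, at least 15.9-fold lower. AT5G44440 was at 7.03, 7.31 and 14.1 in psy1r and 104, 103 and 40.6 in WT, and AT5G24200 at 2.56, 1.24 and 1.3 in psy1r and 12.3, 13.1 and 9.64 in WT. AT2G16340 was at least 5.77-fold and AT5G37200 at least 3.96-fold lower, both near the limit of measurement and with an adjusted p of 0.0656 when the slide was a block.

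Of 25 tested genes of sugar starvation and amino acid breakdown, 5 were called lower in psy1r and 0 higher, against 1% of all loci called in either direction. Plants turn many such genes on in the dark or when carbon runs short, and some of their products release carbon from amino acids, starch and cell wall polymers. SWEET12, QQS and ASN1 have other functions, given below. Called or not, 23 of the 25 had a negative and 2 a positive log2 fold change. The median was -0.68, against -0.02 over all 21432 loci. At 12 of the 25 the psy1r values lay below all WT values, as they did at 12.1% of all loci, and at 0 of the 25 they lay above them. The study lists all 5 called genes for psy1r from these samples, and the list was chosen with earlier results known. The counts are therefore no independent evidence.

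BCAT-2, a branched-chain aminotransferase, had the largest fall, with 19.4, 17.7 and 33.7 in psy1r against 171, 180 and 110 in WT (log2 fold change -2.73, SE 0.26, adjusted p = 0.00331). MGL, the methionine gamma-lyase that breaks methionine down, was at 107, 110 and 86.9 in psy1r and 332, 326 and 329 in WT, and its SE was 0.13. SWEET12, a sucrose exporter of the phloem parenchyma, was at 22.1, 22.7 and 18.4 in psy1r, against 83.2, 81.6 and 48.3 in WT. In each of these the genotypes were well separated, and replicate 3 of WT was the lowest of its group in BCAT-2 and SWEET12.

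QQS, a gene found only in Arabidopsis thaliana that affects starch content, was at 15.2, 15.4 and 25.5 in psy1r and 52.1, 51.1 and 151 in WT. SEN1, a marker of darkness and senescence, was at 519, 518 and 720 in psy1r and 1833, 1709 and 1048 in WT, and its adjusted p was 0.0659 with the slide as a block. Other members were not called. DIN2, a beta-glucosidase, had 0.848, 1.23 and 2.31 in psy1r against 4.39, 5.39 and 7.5 in WT (adjusted p = 0.0905), and its dimmer second probe was called at -3.04. ASN1, an asparagine synthetase, had a log2 fold change of -1.74 but overlapped, with 52.9, 52.0 and 18.6 in psy1r and 189, 202 and 49.7 in WT. By slide, the median of the 25 differences was -0.90 on slide 1, -0.87 on slide 2 and -0.46 on slide 3.

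Of the 33 genes of seed maturation and storage, 30 were tested. Of these, 2 were called higher in psy1r and 1 lower (10%, against 1% of all loci). The genes of this list encode storage proteins, oil body proteins and late embryogenesis abundant proteins that are laid down in the embryo and fade after germination. The called genes were AT3G17520 and AtLEA4-1, higher, and M10, lower. The study lists AtLEA4-1 for psy1r from these samples, so that this count is no independent evidence. M10 was at 1.17, 1.36 and 1.47 in psy1r and 3.03, 3.51 and 3.84 in WT. Of the 30, 5 passed the filter through psy1r arrays alone and so had to lie higher there. Over the 25 measured in both genotypes, 17 had a positive log2 fold change and the median was 0.59, against 22 and 1.29 with the 5 included.

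Other members differed widely but were not called. GEA6, an Em protein of the embryo, was at 21.2, 24.3 and 17.9 in psy1r, against 1.22, 1.4 and 2.06 in WT (log2 fold change 3.78, SE 0.95, adjusted p = 0.0938). AT1G27461 was at 8.66, 9.14 and 8.60 in psy1r and 0.623, 0.387 and 0.399 in WT, not well above background there, so that it was at least 19.2-fold higher in psy1r (adjusted p = 0.0513). CRU3, a cruciferin storage protein, was at 5.08, 5.56 and 6.19 in psy1r and 0.426, 0.555 and 0.469 in WT, again not well above background, so that it was at least 11.6-fold higher in psy1r (adjusted p = 0.38). The untreated groups of these 3 did not overlap, with psy1r higher, as it was without overlap at 10.7% of all loci. AT1G27461 and CRU3 passed the filter through psy1r arrays alone and so had to lie higher there. The test's estimate of the spread also took in the psy1r + PSY1 arrays. There CRU3 read 1.63 in replicate 1 and 1234 in replicate 3. Why the 3 genes missed the call was not tested. The regulators of seed maturation ABI3 and ABI5 differed by 0.37 and 0.01 on the log2 scale.

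The summed level of 13 dry seed markers was 77.4, 87.1 and 144 in psy1r and 32.4, 35.0 and 146 in WT. Replicate 3 was thus the highest in both genotypes, and on that slide the sums of the genotypes were nearly equal. Most of the replicate 3 sums came from SESA2 and SESA5, at 32.5 and 52.0 in psy1r and 51.6 and 79.4 in WT. Of the 8 tested markers measured in both genotypes, 5 had a positive log2 fold change. Over all 11 tested markers the median difference was 1.90, 1.68 and 0.35 by slide, but 3 of them passed the filter through psy1r alone. Between 9 and 11 of the 13 were above background in psy1r and between 5 and 9 in WT. In psy1r + PSY1 the sum was 42.6 in replicate 1 and 2906 in replicate 3, against 46.6 to 53.0 in WT + PSY1. The part of ungerminated or younger seed in these results was not tested. By slide, the median difference of the 30 tested seed genes, the 5 included, was 0.78, 1.11 and 1.06.

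**Figure D3:**
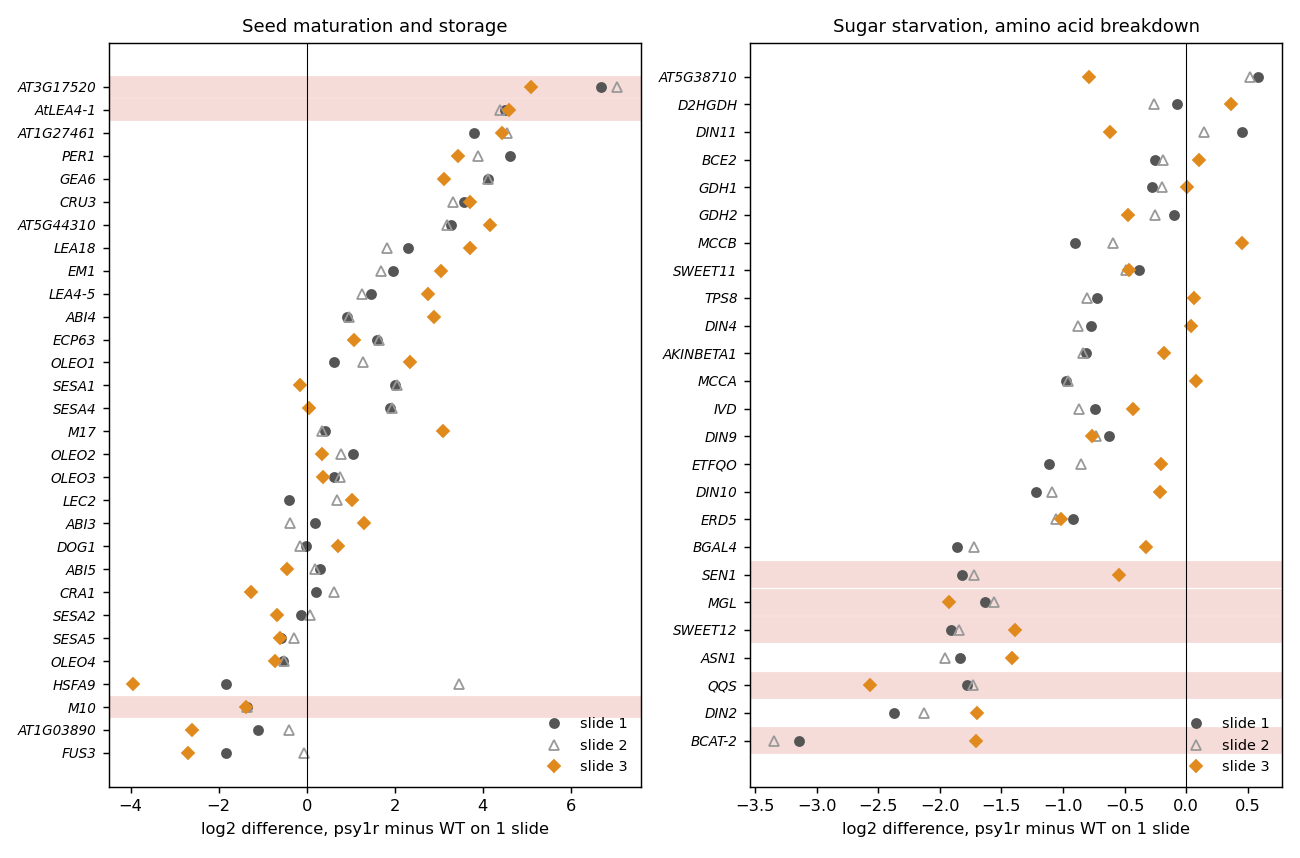
Difference psy1r minus WT in log2 normalised signal on each of the 3 slides (horizontal axis) for the tested genes of seed maturation and storage (left) and of sugar starvation and amino acid breakdown (right), sorted by their mean; shaded rows are called genes. Most seed genes lie right of 0 and most starvation genes left of 0, and slide 3 often departs from slides 1 and 2.

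Reserve use after germination was mixed. ICL, isocitrate lyase of the glyoxylate cycle that turns seed oil into sugar, was at 562, 556 and 261 in psy1r, against 97.1, 98.3 and 136 in WT (log2 fold change 1.99, SE 0.29, adjusted p = 0.0161), and 2 of its 3 probes were called. PCK2, a phosphoenolpyruvate carboxykinase of gluconeogenesis, moved the other way, with 48.9, 45.7 and 31.6 in psy1r and 103, 93.1 and 78.7 in WT. MLS, malate synthase, the partner of ICL in the cycle, was not called (log2 fold change 0.92, adjusted p = 0.139). The median of the 13 tested genes was 0.01.

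Of 22 tested receptor-like kinases of defence, 4 were called higher in psy1r and 1 lower (22.7%, against 1% of all loci). These membrane kinases sense microbes or pass on stress signals, and PSY1R belongs to the same superfamily. Called or not, 19 of the 22 had a positive log2 fold change, and the median was 0.64. At 12 of the 22 the psy1r values lay above all WT values, as they did at 10.7% of all loci. The study lists every called kinase for psy1r from these samples, and the list was chosen with earlier results known. The counts are therefore no independent evidence.

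CRK6, a cysteine-rich receptor kinase, was at 29.2, 28.4 and 29.6 in psy1r, against 3.12, 2.99 and 8.70 in WT (log2 fold change 2.75, SE 0.39, adjusted p = 0.0150), and both of its probes were called. LECRKA4.1, a lectin receptor kinase that acts in the abscisic acid response, was at 199, 196 and 245 in psy1r and 70.9, 71.6 and 72.2 in WT (log2 fold change 1.57, SE 0.11). CRK41 was at 23.3, 20.1 and 32.1 in psy1r and 10.9, 10.8 and 9 in WT. The lectin kinase B120 was at 84.2, 81.8 and 85.4 in psy1r and 37.3, 37.9 and 32.4 in WT. These genotypes stood clearly apart on every slide.

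CRK4 fell, with 1.31, 0.736 and 2.05 in psy1r against 6.46, 6.89 and 6.17 in WT. The immune receptors FLS2, EFR and CERK1, which sense flagellin, bacterial elongation factor and chitin, differed by 0.02, 0.38 and 0.23 on the log2 scale and were not called. The median difference of the 22 kinases was 0.79 on slide 1, 0.67 on slide 2 and 0.29 on slide 3.

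Among 30 tested genes of salicylic acid signalling, the hormone of defence against biotrophic pathogens, 4 were called, all lower in psy1r (13.3%, against 0.635% of all loci called lower). Besides AIG1 these were ICS2, ACD6 and ANK. The study lists AIG1, ICS2 and ACD6 for psy1r from these samples, so that the count is no independent evidence. ANK passed the filter through WT arrays alone and so had to lie lower in psy1r. ICS2, the minor isochorismate synthase, was at 1.72, 2.02 and 1.58 in psy1r, against 5.58, 5.82 and 7.83 in WT (log2 fold change -1.84, SE 0.15, adjusted p = 0.00187). ACD6, an ankyrin protein that promotes salicylic acid responses, was at 17.3, 20.2 and 21.9 in psy1r and 47.2, 47.2 and 80.5 in WT.

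ANK, a second ankyrin protein, was at 0.387, 0.397 and 0.993 in psy1r and 4.67, 5.37 and 17.8 in WT, at least 13.1-fold lower. The rest of the list did not move together: 16 of the 30 had a positive log2 fold change and the median was 0.12. PR1, the usual marker of the response, had a log2 fold change of -1.27 with an adjusted p of 0.715, and SARD1, an activator of salicylic acid synthesis, one of 1.64 with an adjusted p of 0.104.

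Among genes of the jasmonate and ethylene response, the defensins PDF1.2b, PDF1.3 and PDF1.2c were called higher in psy1r. PDF1.2b was at 68.5, 66.6 and 49.0 in psy1r, against 12.2, 12.4 and 24.7 in WT (log2 fold change 1.97, SE 0.27, adjusted p = 0.0134). PDF1.3, at 138, 147 and 98.2 in psy1r and 25.2, 31.1 and 51.9 in WT, and PDF1.2c, at 106, 104 and 81.9 in psy1r and 21.3, 24.7 and 45.2 in WT, followed the same pattern. PDF1.2 differed by a log2 fold change of 1.84 and was not called (adjusted p = 0.0887). These are near-identical copies whose signals cannot be told apart, so that they may stand for 1 difference. JRG21, an oxygenase that inactivates jasmonate, fell, with 19.9, 23.4 and 12.4 in psy1r against 67.8, 71.9 and 112 in WT. The defensin PDF1.5, outside the list and named after its values were seen, was called lower (log2 fold change -1.19). In all, 3 of 38 tested jasmonate and defensin genes, the 3 defensin copies, were called higher and 1 lower (10.5%, against 1% of all loci), and the jasmonate synthesis gene LOX2 and the markers VSP1 and VSP2 were not called. The study lists PDF1.2b and JRG21 for psy1r from these samples, so that this count is no independent evidence.

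Of 28 tested genes of tryptophan, indole glucosinolates and camalexin, only CYP81F2 was called (3.57%, against 1% of all loci). It hydroxylates indole glucosinolates and was at 229, 227 and 305 in psy1r, against 103, 102 and 139 in WT (log2 fold change 1.15, SE 0.16). None of the 15 aliphatic glucosinolate genes was called by limma, and 1 of them had an unadjusted p below 0.05.

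**Figure D4:**
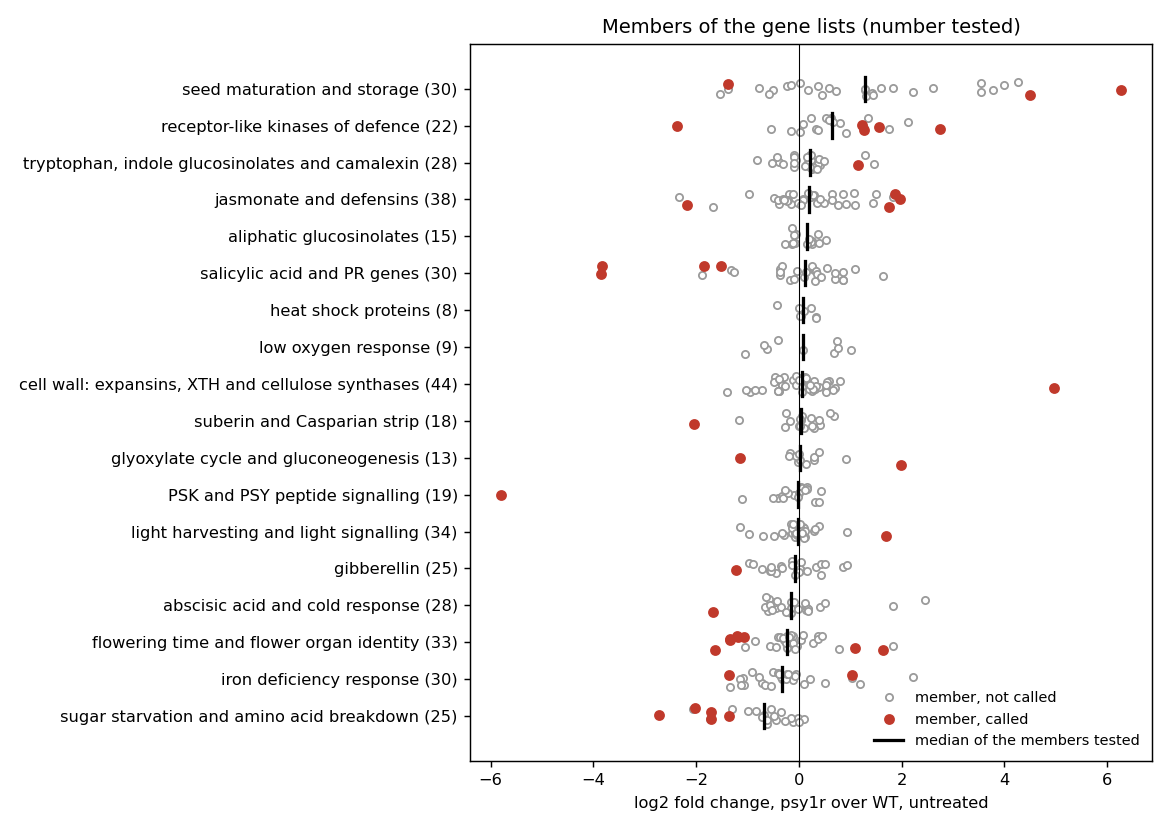
Log2 fold change of psy1r over WT (horizontal axis) for each tested member of 18 gene lists, sorted by median; filled points passed the call, open points did not, and the vertical bar is the median. The median is 1.29 for the seed list (0.59 over the 25 genes measured in both genotypes) and -0.68 for the sugar starvation list.

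In metal homeostasis, FRU (FIT), the transcription factor that switches on iron uptake in the root, was at 2.24, 2.32 and 1.54 in psy1r, against 5.62, 5.89 and 4.17 in WT (log2 fold change -1.37, SE 0.23, adjusted p = 0.0262). A second probe gave -0.88 and was not called, and blocking by slide gave 0.0559 for the first. COPT2, a copper transporter, was at 138, 136 and 147 in psy1r and 75.3, 69.6 and 62.2 in WT (log2 fold change 1.03), and both of its probes were called. The remaining 28 tested iron deficiency genes were not called, so that 6.67% of the list was, against 1% of all loci. The study names both called genes for psy1r from these samples, so that this count is no independent evidence. IRT1, the main iron importer, and FRO2, the ferric reductase, had log2 fold changes of -1.14 and -0.77 without overlap and adjusted p-values of 0.458 and 0.367. At 23.3% of the 30 tested genes the psy1r values lay below all WT values, against 12.1% of all loci. They lay above them at 10%, against 10.7% of all loci. Over the 30 genes 23 were negative and the median was -0.34, against 11430 of the 21432 loci and -0.02. By slide, the median was -0.44, -0.31 and -0.11.

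Hormone and light genes gave single calls. They made up 4% of gibberellin, 3.57% of abscisic acid and cold and 2.94% of light genes, against 1% of all loci. With 1 call each, these shares are not read as a result about the lists. GA3OX1, which makes the active gibberellins, was at 37.6, 45.4 and 52.1 in psy1r, against 99.3, 101 and 112 in WT (log2 fold change -1.22, SE 0.17), the only call among 25 gibberellin genes. COR413IM1, a cold-regulated protein of the chloroplast envelope, was at 37.8, 38.5 and 31.7 in psy1r and 122, 126 and 96.0 in WT, the only call among 28 abscisic acid and cold genes. ELIP2, a protein that protects chloroplasts in strong light, was at 406, 489 and 299 in psy1r and 127, 127 and 108 in WT, the only call among 34 light genes. The light-harvesting genes in that list differed little, for example CAB1 by -0.01 and LHCB4.1 by -0.02 on the log2 scale.

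FAR1, a reductase that makes fatty alcohols for suberin, was at 42.0, 41.3 and 47.8 in psy1r, against 235, 240 and 102 in WT (log2 fold change -2.04, SE 0.29). Its second probe gave 0.59 in the other direction, so that the fall rests on 1 probe. It was the only one of 18 suberin and Casparian strip genes called (5.56%, against 1% of all loci). None of 9 low-oxygen genes and none of 8 heat shock genes was called by limma, with 3 and 0 below 0.05 unadjusted, but the median of the heat shock genes was 0.82 on slides 1 and 2 and -1.53 on slide 3.

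Regulators of flowering and flower form made up 8 calls among 33 tested, 2 higher and 6 lower. FCA, HEC1, HEC2, NGA4 and SEP3 among them form the flower set that the study chose on these samples, so that the count is no independent evidence and is not read against the 1% of all loci called. Seedlings of this age bear no flowers, and several of these genes also act in leaves and roots. SEP3, a MADS-box factor of all inner flower organs, was at 291, 325 and 467 in psy1r, against 105, 99.4 and 143 in WT (log2 fold change 1.63, SE 0.22, adjusted p = 0.0131), with both probes called. FTM1, a desaturase named for the floral transition, was at 1825, 1904 and 1914 in psy1r and 832, 939 and 864 in WT.

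The other 6 fell. HEC1, a bHLH factor of the carpel, was at 7.72, 7.96 and 9.89 in psy1r, against 25.2, 26.5 and 27.4 in WT (log2 fold change -1.64, SE 0.12, adjusted p = 0.0011). Its relative HEC2 was at 4.23, 4.96 and 5.91 in psy1r and 12.6, 13.4 and 11.9 in WT. FCA, an RNA-binding protein that promotes flowering, was at 23.9, 25.4 and 26.5 in psy1r and 60.1, 53.6 and 45.7 in WT, but its second probe gave only -0.22.

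NGA4, a B3 factor of the style, was at 0.751, 1.35 and 0.924 in psy1r and 2.27, 2.63 and 2.57 in WT, and was measured on 1 psy1r array. KNATM, a KNOX protein without a homeodomain, was at 2.86, 3.5 and 3.59 in psy1r and 7.81, 8.20 and 6.62 in WT, with a second probe at -0.61. PI, a MADS-box factor of petals and stamens, was at 2.64, 2.97 and 2.75 in psy1r and 7.04, 6.85 and 5.54 in WT, with an adjusted p of 0.0516 when the slide was a block. All of these genes were separated by genotype on every slide.

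The study's text names 4 sets of genes for psy1r, which it chose on these samples, so that their counts are no independent evidence of a direction. All 5 metal transport genes were called, FRU, AT5G26690 and AT3G48970 lower and COPT2 and AT5G52710 higher. AT5G26690 was at 0.849, 1.42 and 1.19 in psy1r and 5.17, 5.68 and 5.5 in WT. AT3G48970 was at 13.9, 14.5 and 26.5 in psy1r and 64.1, 69.5 and 43.0 in WT, and AT5G52710 at 4.05, 4.22 and 4.27 in psy1r and 0.587, 1.21 and 0.895 in WT. Blocking by slide gave AT3G48970 an adjusted p of 0.054.

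In the abscisic acid set, AT3G28580 was called higher beside LECRKA4.1, with 200, 198 and 168 in psy1r against 85.7, 71.0 and 83.5 in WT (adjusted p = 0.0738 with the slide as a block). MYB112, a MYB factor, was called lower beside COR413IM1, with 5.10, 5.08 and 3.97 in psy1r and 10.4, 10.3 and 12.2 in WT. DR4, a protease inhibitor, had a log2 fold change of 1.01 and was not called (adjusted p = 0.0567). All 5 genes of the flower set, FCA, HEC1, HEC2, NGA4 and SEP3, are described above.

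Of the 14 genes with a light motif, 12 were tested, 2 called higher and 6 lower. OFP16, an ovate family protein, was at 10.5, 10.2 and 11.4 in psy1r, against 40.1, 40.5 and 35.2 in WT (log2 fold change -1.85, SE 0.20). AT1G23205 was at 251, 258 and 236 in psy1r and 67.6, 73.6 and 105 in WT, and AT5G46080 at 25.4, 24.9 and 23.5 in psy1r and 10.7, 13.1 and 11.6 in WT. ICS2, KNATM, NGA4, PRX52 and SWEET12 also belong here. AT3G62990, AT5G21910, LNG1 and NHL3 were not called, with log2 fold changes of -1.01, -0.69, -0.33 and 0.54, although a dimmer second probe was called for AT3G62990 (-1.39) and for NHL3 (1.08). Promoter sequence was not analysed here.

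Loci next to PSY1R on chromosome 1 did not stand out. Of the 200 tested loci within 100 places of it in gene order, 0 were called other than PSY1R itself, and of the 400 within 200 places 3 were called (0.750%): FAB1C, AT1G73810 and AT1G74458. Between 0.901% and 1.11% of the tested loci of each chromosome were called. A few called loci were neighbours. MRD1 and HEI10, a meiotic crossover gene, both fell with 1 locus between them (log2 fold changes -2.90 and -1.31). AT2G18180 and AT2G18190 lie next to each other and both rose (2.42 and 2.61), whereas PDF1.2c rose and AT5G44440 beside it fell (1.75 and -3.08).

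The same genotypes were compared again in the arrays treated with 10 nM PSY1 for 4 h, which the calls above did not use except for the spread. Of the 215 loci, 190 (88.4%) had the same sign in psy1r + PSY1 against WT + PSY1, and over all tested loci 59.7% had the same sign in both. They were 73 of the 79 higher and 117 of the 136 lower. The median log2 fold change of the higher loci was 0.93 with PSY1 and 1.62 without, and that of the lower loci -0.91 with PSY1 and -1.40 without. In that comparison 233 loci were called (1.09%), and 59 of the 215 were among them with the same sign, 19 higher and 40 lower.

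PSY1R was at 0.534 and 3.70 in psy1r + PSY1 (replicates 1 and 3), against 35.0, 30.4 and 35.8 in WT + PSY1 (log2 fold change -4.58, adjusted p = 0.0327). MRD1 (20.3 and 31.3, against 153, 166 and 156), FAB1C (15.3 and 38.1, against 184, 171 and 177) and AT2G37030 (0.297 and 0.699, against 7.85, 7.82 and 7.86) were called lower again in psy1r + PSY1. SEP3 was at 279 and 408 in psy1r + PSY1 and 123, 128 and 125 in WT + PSY1, called higher again. EXPA2 was at 26.4 and 4.35 in psy1r + PSY1 and 2.55, 2.38 and 2.65 in WT + PSY1 and was not called there (adjusted p = 0.142). Of the 5 starvation genes, BCAT-2, SEN1, SWEET12 and QQS were called lower again and MGL was not. The median of the 30 seed genes, the 5 included, was 1.87 in this comparison, beside the dry seed marker sum of 2906 in psy1r + PSY1 replicate 3.

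**Figure D5:**
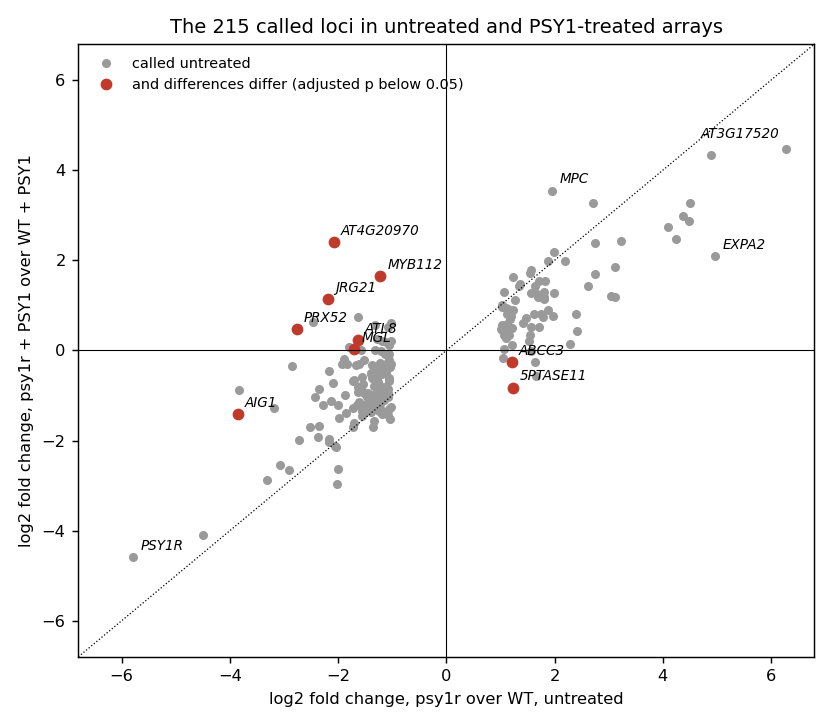
Log2 fold change of the 215 called loci in PSY1-treated seedlings (vertical axis, psy1r + PSY1 over WT + PSY1) against that in untreated seedlings (horizontal axis, psy1r over WT), with a dotted line of equality. Most points lie on the same side of 0 on both axes, and the 9 loci drawn as larger red points had genotype differences that differed between the treatments.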

How the data were processed

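The authors scanned one-colour Cy3 arrays with Agilent Feature Extraction 10.7.3.1 and deposited spot intensity values. The study names GeneSpring with RMA and an analysis of variance. The authors also deposited a log2 table, centred by row, whose scale was found by comparison with the scanner values. Here log2 processed intensity was scaled to the 75th percentile of each array. Probes flagged well above background on 2 or more of the 6 untreated arrays were tested with limma 3.58.1 (lmFit, eBayes, Benjamini-Hochberg adjustment, R 4.3.3) in 1 fit of 4 groups and 11 arrays. A call needs an adjusted p below 0.05 and a change over 2-fold. The number of arrays limits the precision. On simulated data with 35019 probes, 70% of changes of 1.5 and 88% of changes of 3 on the log2 scale were recovered, with 6 false calls. The simulated noise was independent, with the same spread of a probe on every array. Replicate 3 stood apart in the real arrays, so that these rates do not give the error of the calls. Probes were tied to loci by 34358 matches to RefSeq (TAIR10.1). No build-matched genome was used here, so no coordinates are given. Named genes are PSY1R, PSY1, genes the study names for psy1r, called list members and the 12 largest rises and falls without overlap. The members and lists were chosen with earlier results of these data known. Replicate 2 of psy1r + PSY1 was not analysed here.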

Additional observations from a re-analysis of the deposited data

Results flagged for a closer look

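The genotype difference with PSY1 was compared with that without PSY1 by an interaction term in the same limma fit, which gave 19 probes with an adjusted p below 0.05. Of the 215 called loci, 9 were among them, and the values below are the difference with PSY1 minus the difference without, on the log2 scale.

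AT4G20970 differed by 4.49 (adjusted p = 0.012): untreated it was at 12.6, 12.5 and 7.61 in psy1r and 41.0, 36.5 and 60.8 in WT, and treated at 33.5 and 27.3 in psy1r + PSY1 and 5.79, 5.53 and 5.77 in WT + PSY1. JRG21, the jasmonate oxygenase, differed by 3.33 (adjusted p = 0.0367), with 65.0 and 69.6 in psy1r + PSY1 and 29.0, 33.8 and 28.8 in WT + PSY1. PRX52, the peroxidase, differed by 3.24 (adjusted p = 0.0208), with 4.17 and 7.44 in psy1r + PSY1 and 3.68, 4.02 and 4.34 in WT + PSY1. MYB112 differed by 2.88 (adjusted p = 0.012), with 8.37 and 10.3 in psy1r + PSY1 and 2.84, 3.20 and 2.83 in WT + PSY1. MYB112 and AT4G20970 were the 2 loci called in opposite directions in the 2 comparisons.

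AIG1 differed by 2.44 (adjusted p = 0.0474), ATL8, a RING-finger protein, by 1.86 (adjusted p = 0.0208) and MGL by 1.73 (adjusted p = 0.0367), all 3 lower in untreated psy1r than in untreated WT. 5PTASE11, an inositol polyphosphate phosphatase, differed by -2.05 (adjusted p = 0.03) and ABCC3, a vacuolar ABC transporter, by -1.47 (adjusted p = 0.0337), both higher in untreated psy1r. With the slide as a block 0 probes had an adjusted p below 0.05 for the interaction, against 4512 unadjusted.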

How the results depend on the processing

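The 298 called probes became 179 with normexp and local background, 106 with the 6 untreated arrays alone and 2034 with array weights. An unmoderated one-way analysis of variance, the test the study names, called 17, and it was run on the 6 untreated arrays alone. The count was 6 with replicates 1 and 2 averaged and 1922 with replicates 1 and 2 only. It was 1134 without adjustment, 568 without a fold limit and 91 to 990 with 1 array left out. The called probes were 227 with RMA, 296 from the authors' values, 230 without the filter and 273 with a filter on all 6 arrays.

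The replicate numbers, which are also the slides, do not establish pairing: deviations of same-numbered psy1r and WT arrays correlated at 0.25, -0.07 and 0.37. With the replicate block 247 probes were called and PSY1R kept its call (-5.79, adjusted p = 0.0325). An alternative added after seeing the data, the 6 arrays with the block, called 0 probes in limma (5942 unadjusted) and gave PSY1R -5.79 with an adjusted p of 0.113.

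PSY1R missed the threshold by that analysis of variance (-5.79, adjusted p = 0.104), with replicates averaged (-6.01, adjusted p = 0.440) and without WT replicate 1 or 2 (-5.69 and -5.67). Its log2 fold change lay within -6.14 to -5.12 over arrays left out. The size of the fall depended on the background method, with -3.14 for normexp and local background (limma adjusted p = 0.000285). Over all alternatives its adjusted p lay between 6.3e-06 and 0.440. It gave no value where all 6 arrays had to be above background. Over 71 named genes, 1110 of 1543 alternative values (the added one not counted) kept their side of the threshold, 426 missed it, 7 newly passed and 0 changed sign.

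The share of called loci with the same sign under PSY1, 88.4%, was 100% of 2 loci with replicates averaged and 75.9% to 91.3% with 1 array left out, lowest without psy1r + PSY1 replicate 1 (53.0% of all loci). The 19 interaction probes became 40 with normexp, 9 without the filter, 57 with array weights, 0 with the block or with replicates averaged (1618 unadjusted), 3339 with replicates 1 and 2 only and 0 to 1050 with 1 array left out. The causes were not tested. Signal near background limits the 32 called loci measured in only 1 genotype.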

Other observations

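Several called loci outside the gene lists, chosen after their values were seen, carried signalling and growth functions. MPK11, a MAP kinase, was at 37.0, 37.4 and 35.5 in psy1r, against 11, 10.8 and 9.72 in WT (log2 fold change 1.8, SE 0.09, limma adjusted p = 0.00015). It was called higher again with PSY1, at 46.8 and 49.3 in psy1r + PSY1 and 20.7, 20.4 and 22.2 in WT + PSY1. The genotypes did not overlap with or without PSY1. UPB1, a bHLH factor that represses peroxidases at the root's transition to elongation, was at 43.4, 45.7 and 41.9 in psy1r and 165, 170 and 106 in WT. CLE2, a precursor of a secreted peptide, was at 14.9, 16.5 and 18.8 in psy1r and 41.9, 38.7 and 44.4 in WT. AT5G20820 (SAUR76), a second small auxin-induced gene beside SAUR46, was at 78.9, 92.4 and 87.9 in psy1r and 207, 216 and 249 in WT, and the clade D phosphatase gene AT5G02760 was at 92.9, 98.9 and 112 in psy1r and 221, 214 and 236 in WT.

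The defensin PDF1.5 moved opposite to the PDF1.2 copies, with 20.2, 22.3 and 20.6 in psy1r against 49.1, 51.2 and 43.9 in WT (log2 fold change -1.19, SE 0.10), and was called lower again with PSY1. FRA8, a xylan synthesis gene, was at 12.4, 13.7 and 17.7 in psy1r and 43.9, 40.7 and 48.7 in WT, and both of its probes were called. The fatty acid hydroxylase family gene CYP86C1 was at 10.6, 10.7 and 9.26 in psy1r and 2.25, 2.38 and 1.37 in WT. Of the NAC transcription factors, NAC061 (log2 fold change 1.54) and NAC090 (1.71) were called higher and NAC019 (-1.03) lower, with adjusted p-values of 0.079, 0.0488 and 0.0774 when the slide was a block.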
